A study of Homo sapiens with 2 samples.

Results

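Translation initiation factors are described here through their exons in HEK293T cells, an established line of human embryonic kidney origin. The genes were taken by symbol: every row of the 5 deposited splicing tables whose gene symbol begins with EIF and a digit. The rule found 49 of 12254 gene symbols and 1100 of 159490 events. RNA-seq of polyadenylated RNA was made from 1 library of control cells and 1 library of cells kept for 6 h in medium with 300 µg/mL of amiloride, a diuretic and sodium channel blocker. The tables were made by rMATS, which lists an event where reads or the annotation join its exons in alternative ways, and each table covers both libraries together.

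In the tables the libraries carry numbers but no condition, so the 30 columns of reads and inclusion levels were not used. The authors' p-values, FDR and inclusion level differences were not used either. What follows therefore describes which exons and splice sites of these genes entered the tables, how they are built and what the listed junctions would remove. It gives no effect of amiloride, no depth per library and no test. Each condition had 1 library, so no replicate error can be given. Levels of marker genes were not available without the reads, so the cell line was not checked against its markers. An exon can be listed more readily where its gene has more reads, and the part of expression in the counts was not tested.

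An mRNA is read from its cap. The eIF4F complex binds the cap and unwinds the leader, and eIF3 bridges it to the small ribosomal subunit. That subunit carries the eIF2 trimer with the initiator tRNA, and EIF1 and EIF1A factors keep it from stopping at wrong codons. eIF5 and eIF5B act once the start codon is found. eIF2 is recharged with GTP by eIF2B, and 4 kinases that phosphorylate eIF2 under stress turn this exchange down. An exon whose length is a multiple of 3 can be left out of the mRNA with the reading frame kept, while other exons shift the frame.

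The skipped-exon table held 741 of the 1100 events, in 355 distinct exons, each defined by chromosome, strand, start and end. All 49 symbols had at least 1 such event. Skipped exons were 67.4% of the eIF events, against 71.1% of the events of all genes. A further 325 events were mutually exclusive exons, in 43 of the genes (29.5%, against 39869 of the 159490 events in all genes). Alternative 5' splice sites (5'SS) gave 9 events in 4 genes (0.818%, against 1.64%), and alternative 3' splice sites (3'SS) gave 23 events in 10 genes (2.09%, against 2868 of the 159490 events). Retained introns were listed 2 times, both in EIF6 (0.182%, against 0.424%). The symbols include EIF3J-AS1, an antisense RNA that encodes no factor, with 1 listed skipped exon of 316 bases. They also include EIF4A3, a helicase of the exon junction complex.

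Some of these exons can be read directly. EIF4H, EIF4A2, EIF4G2, EIF2AK2 and EIF5A were chosen by name, and the exon shown for each was picked after the tables were seen. Apart from that of EIF5A, a listed junction that skips these exons is annotated, as is the case for other exons not shown. For exon 9 of EIF4G2 the annotated junction leaves out 7 exons, and the junction that leaves out exon 9 alone is not annotated. EIF4A1 is shown for the shortest skipped exon and EIF2B4 for the exon with the most events. All sequences are from GRCh37, 5' to 3' along the gene. The exon is in capitals, between 20 bases of the intron before it and 6 bases of the intron after it.
EIF4A1, alternative exon of 18 bases, chr17:7481525-7481568, + strand: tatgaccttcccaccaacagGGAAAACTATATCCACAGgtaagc
EIF4H, exon 5 of 60 bases, chr7:73604557-73604642, + strand: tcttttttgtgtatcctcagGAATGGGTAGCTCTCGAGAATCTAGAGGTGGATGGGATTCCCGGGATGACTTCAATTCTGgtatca
EIF4A2, exon 4 of 140 bases, chr3:186502731-186502896, + strand: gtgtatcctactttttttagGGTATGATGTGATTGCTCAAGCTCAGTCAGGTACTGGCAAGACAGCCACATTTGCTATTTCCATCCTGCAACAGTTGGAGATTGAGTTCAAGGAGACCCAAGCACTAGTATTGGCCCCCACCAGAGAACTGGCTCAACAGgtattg
EIF4A2, exon 9 of 90 bases, chr3:186505264-186505379, + strand: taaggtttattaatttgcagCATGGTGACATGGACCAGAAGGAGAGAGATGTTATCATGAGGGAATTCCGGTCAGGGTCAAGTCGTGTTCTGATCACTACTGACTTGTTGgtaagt
EIF4G2, exon 9 of 111 bases, chr11:10825021-10825157, - strand: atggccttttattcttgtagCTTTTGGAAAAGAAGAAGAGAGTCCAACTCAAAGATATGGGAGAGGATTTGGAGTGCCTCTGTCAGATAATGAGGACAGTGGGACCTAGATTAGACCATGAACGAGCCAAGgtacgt
EIF2AK2, exon 14 of 129 bases, chr2:37341868-37342022, - strand: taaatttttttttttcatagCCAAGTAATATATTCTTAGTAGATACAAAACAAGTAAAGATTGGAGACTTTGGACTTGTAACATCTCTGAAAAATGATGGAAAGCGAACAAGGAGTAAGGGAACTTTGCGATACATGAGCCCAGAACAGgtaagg
EIF2B4, exon 8 of 77 bases, chr2:27590607-27590709, - strand: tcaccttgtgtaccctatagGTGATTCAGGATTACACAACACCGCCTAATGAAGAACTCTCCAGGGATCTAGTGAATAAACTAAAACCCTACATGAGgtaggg
EIF5A, exon 3 of 105 bases, chr17:7214317-7214447, + strand: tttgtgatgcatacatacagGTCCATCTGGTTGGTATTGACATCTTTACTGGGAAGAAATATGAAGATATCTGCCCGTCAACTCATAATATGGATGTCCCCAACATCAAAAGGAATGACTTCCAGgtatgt

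Each gene was laid against its canonical transcript in GENCODE release 44, lifted to GRCh37, and exons were numbered along it from the 5' end. Of 521 internal exons in 48 eIF genes, 338 (64.9%) were listed as skipped exons under the gene's own symbol. The reference was the 10899 genes with a listed skipped exon and a canonical transcript of 3 or more exons. There it was 58517 of 121044 internal exons (48.3%). Genes without a listed skipped exon are in neither share. Of the 61 genes that were assigned a role, 13 had no listed event under their own symbol. The median gene had 69.6% of its internal exons listed among the eIF genes and 57.1% among the 10899 genes. Every internal exon was listed in 6 eIF genes: EIF2A (12 exons), EIF3K (6), EIF4E (5), EIF5A (4), EIF5A2 (3) and EIF4EBP1 (1). These are 12.5% of the 48 genes, against 15.7% (1711) of the 10899.

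**Figure D1:**
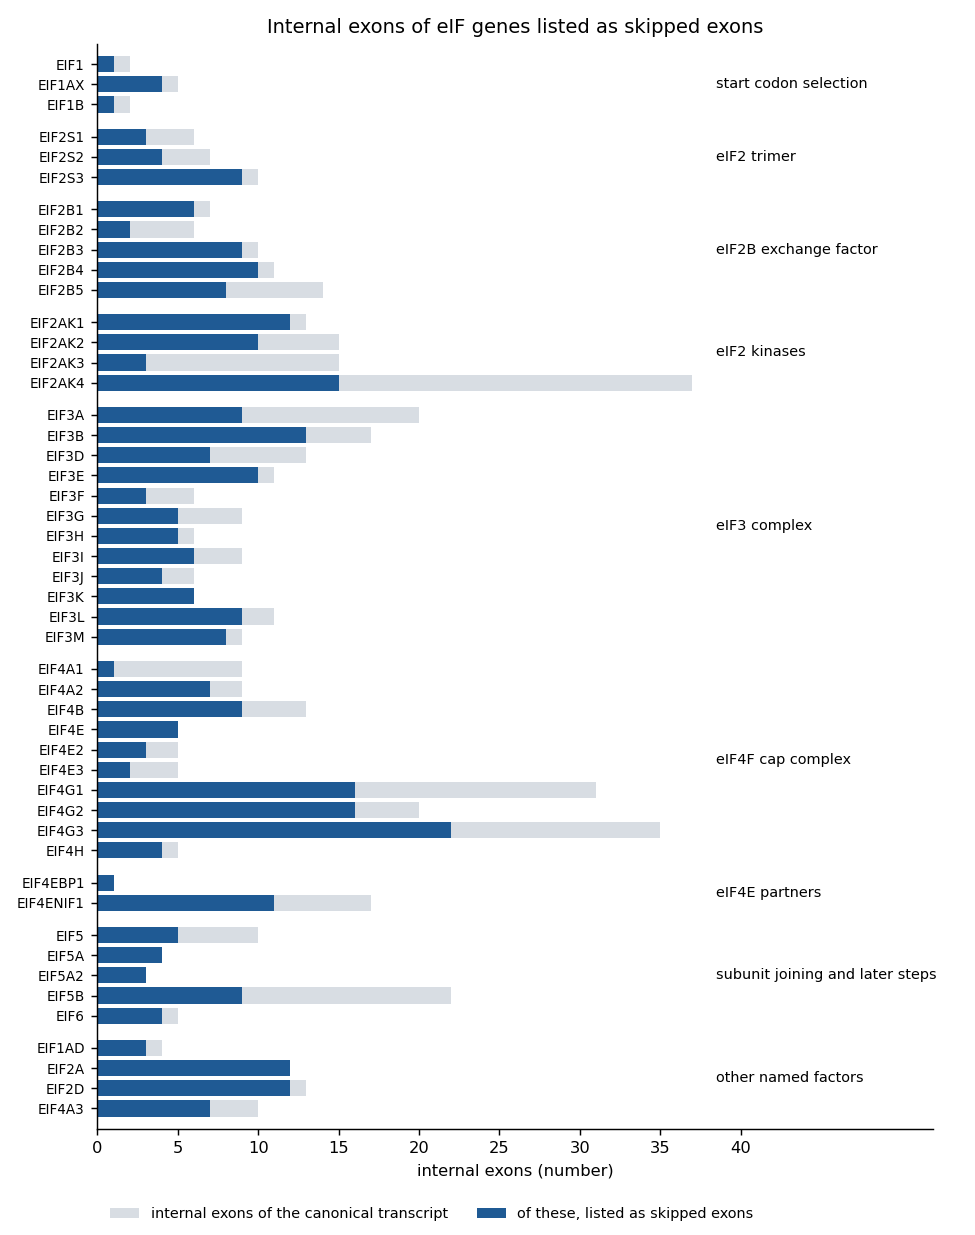
Number of internal exons in the canonical transcript of each eIF gene (grey bars) and the number of these listed as skipped exons (blue bars), with genes ordered by role. EIF4G3 had the most internal exons listed (22 of 35), and EIF2AK4 had the most internal exons (37), of which 15 were listed.

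Among the factors that select the start codon, EIF1AX, which binds the decoding site of the small subunit, had 4 of 5 internal exons listed. EIF1 and its close paralog EIF1B, which keep the scanning ribosome from starting at wrong codons, had 1 of 2 each, and in both genes the exon had 164 bases. In both, leaving out that exon would shift the frame to a stop codon more than 50 bases before the last exon junction, the usual criterion for nonsense-mediated decay. The 3 genes had 8 skipped-exon events in all.

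The eIF2 trimer carries the initiator tRNA. EIF2S3, its GTP-binding gamma subunit, had 9 of 10 internal exons listed in 28 events, while EIF2S1, the alpha subunit phosphorylated under stress, had 3 of 6 and EIF2S2, the beta subunit, 4 of 7. Only 3 of the 16 exons of the trimer had a length that is a multiple of 3. All 27 skipping junctions of the 3 genes were absent from the annotation used here, as were 80.9% of the skipping junctions over all genes.

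eIF2B returns eIF2 to its GTP-bound form, and its 5 subunit genes ranged widely. EIF2B4, the delta subunit, had 10 of 11 internal exons listed and more events than any other eIF gene, 55 skipped-exon and 44 mutually exclusive exon events. EIF2B3 (gamma) had 9 of 10 internal exons listed, EIF2B1 (alpha) 6 of 7, the catalytic EIF2B5 (epsilon) 8 of 14 and EIF2B2 (beta) 2 of 6. Of the 62 skipping junctions in these genes 60 were not annotated (96.8%, against 80.9% over all genes), and the other 2 lay in EIF2B1 and EIF2B3.

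The 4 eIF2 kinases sense different stresses. EIF2AK1 (HRI), activated by heme shortage, had 12 of 13 internal exons listed, EIF2AK2 (PKR), activated by double-stranded RNA, 10 of 15, EIF2AK4 (GCN2), activated by amino acid shortage, 15 of 37, and EIF2AK3 (PERK), activated by stress in the endoplasmic reticulum, 3 of 15. In EIF2AK4, 10 of the 15 listed exons had a length that is a multiple of 3, and 8 of the 13 exons that a junction left out alone would keep the frame. EIF2AK1 was built the other way, with 3 of 13 listed exons a multiple of 3 and 7 of 9 single removals shifting the frame to an early stop. For EIF2AK2, 5 of 10 skipping junctions were annotated, among them the one that leaves out exon 14 shown above. All 17 of EIF2AK1 were not annotated, against 80.9% over all genes.

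The largest complex, eIF3, contributed 12 genes, 85 exons and 178 skipped-exon events. Of 123 internal exons 85 were listed, from 9 of 20 in EIF3A, a core subunit, to 6 of 6 in EIF3K. EIF3B, a subunit with an RNA recognition motif, had 13 of 17 listed, EIF3E 10 of 11, EIF3L 9 of 11, EIF3M 8 of 9, EIF3D 7 of 13, EIF3I 6 of 9, EIF3G and EIF3H 5 of 9 and 5 of 6, EIF3J 4 of 6 and EIF3F 3 of 6. No listed event carried the symbol EIF3C, so that subunit is not described. Removal of a single exon would keep the frame for 21 of 62 such exons of the complex, against 37.6% over all genes. At the extremes were all 4 in EIF3K, none of 6 in EIF3D, which can bind the cap, and none of 5 in EIF3M. These counts per gene are small, and a difference between subunits was not tested. EIF3E and EIF3I had the most annotated skipping junctions in the complex, 6 of 16 and 6 of 13.

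In EIF3B, listed exons stood side by side. Exons 5 to 16 of 19 were all listed, and exons 13 to 16 had 3 events each. Exon 11 of 73 bases is followed by GC in place of GT and is described with the splice sites. Of 21 skipping junctions 20 were not annotated, against 80.9% over all genes. Among them 11 of the 21 left out 2 or more exons, against 42.3% of the junctions between canonical exons over all genes.

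In the cap complex, EIF4G3 had 24 distinct skipped exons, EIF4G1 had 17 and EIF4G2 had 16, the highest 3 counts among the eIF genes. EIF4G1 and its paralog EIF4G3 are the scaffolds that join the cap-binding protein to the helicase, and EIF4G2 (DAP5) is a relative that lacks the site for the cap-binding protein. Exon 14 of EIF4G3, with 840 bases, was the longest skipped exon of all eIF genes. It lies in coding sequence, its removal would keep the frame, and annotated transcripts leave it out. Of the others, EIF4B had 9 of 13 internal exons listed, EIF4A2 7 of 9, EIF4E 5 of 5, EIF4H 4 of 5, EIF4E2 3 of 5 and EIF4E3 2 of 5. EIF4B and EIF4H stimulate the helicase, EIF4A2 is one of its paralogs, EIF4E binds the cap and the last pair are its relatives.

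EIF4A1, the helicase itself, had 1 of 9 internal exons listed under its own symbol. The other 8 were listed under SENP3-EIF4A1, the symbol of a read-through transcript, which the rule does not take and which had 52 skipped-exon events. The exon of 18 bases shown above is the shortest skipped exon of the eIF genes and the only one of at most 27 bases. It is the short form of an alternative 3'SS, with a long form of 80 bases.

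EIF4H and EIF4A2 hold exons that annotated transcripts leave out. Exon 5 of EIF4H, with 60 bases, would leave the frame intact, and its 5'SS had a low score of 3.13 beside a 3'SS of 12.62 (the scale is explained with the splice sites). In EIF4A2, exon 9 (90 bases) would keep the frame, while exon 4 (140 bases) would shift it to an early stop more than 50 bases before the last junction. In EIF5A, a factor of elongation and termination, all 4 skipping junctions were not annotated, against 80.9% over all genes. Exons 3 (105 bases) and 4 (132 bases) would keep the frame, and exon 2 holds the start codon. The coding sequence ends in exon 5 (74 bases), so its removal would take out the normal stop codon.

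The remaining genes are partners or act at later steps. EIF4EBP1, the repressor that releases the cap-binding protein when phosphorylated, had its 1 internal exon listed, and EIF4ENIF1 (4E-T), which carries that protein into the nucleus, had 11 of 17. EIF5, the GTPase-activating protein of eIF2, had 5 of 10, EIF5B, which joins the large subunit, 9 of 22, EIF5A2 3 of 3 and EIF6, which keeps the large subunit from joining early, 4 of 5. EIF2A and EIF2D, which can deliver tRNA without the eIF2 trimer, had 12 of 12 and 12 of 13 listed. EIF1AD had 3 of 4 and EIF4A3 7 of 10. EIF2A and EIF2D also had many events, 40 and 38 skipped-exon events and 24 and 17 mutually exclusive exon events.

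Genes of translation and its control that carry other names give a reference. From a list of 20 such genes (for example PABPC1, MKNK1, GSPT1 and MTOR), 18 had skipped-exon events, 323 in all. Of their 318 internal exons 177 (55.7%) were listed, from 4 of 16 in ABCE1, which recycles ribosomes, to all of them in MCTS1 and GSPT1.

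In length, the eIF exons had a median of 113 bases, with quartiles of 84 and 147.5, and all 67154 skipped exons had a median of 114 bases, with quartiles of 83 and 154. The share with a length that is a multiple of 3 was 38.6% (137 of 355) against 38.8% overall. Among all internal exons of the same 48 genes, listed or not, it was 39.5%. Between the roles the share ranged from 15.4% in the eIF4E partners and 18.8% in the eIF2 trimer to 47.6% in the kinases and 47.8% in the cap complex. These are counts of 2 of 13, 3 of 16, 20 of 42 and 44 of 92 exons, and the exons of a gene are not independent. Only 7 eIF exons were over 300 bases (1.97%, against 3.19% overall), and 12 were of at most 50 bases (3.38%, against 5.51%).

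Of the eIF exons, 332 (93.5%) lay wholly within coding sequence, against 86.4% of all skipped exons. A further 13 were partly coding (3.66%, against 3.77%), 7 lay in 5'UTRs (1.97%, against 2.19%) and 3 lay outside the canonical transcript (0.845%, against 6.18%). The introns beside them had medians of 1466 bases before and 1323.5 bases after the eIF exons, against 1860 and 1729 bases overall. These medians are over exons that a junction left out alone, 272 in eIF genes and 45110 in all.

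A skipping junction joins the exons on either side of what is left out. The 741 events rested on 529 distinct skipping junctions, since events that share a junction differ in the exon they name. Of these, 438 (82.8%) were not annotated, against 80.9% of 88907 over all genes. Counted by event it was 83.9% against 82.0%. In 14 of the 49 genes (28.6%) no skipping junction was annotated, against 35.3% of the 11965 genes in the table. Among the 14 were EIF2B4 with 25, EIF2S3 with 18, EIF2AK1 with 17, EIF2B5 with 13 and EIF3A, EIF3D and EIF5B with 10 each. EIF4G1 had the most annotated skipping junctions, 7 of 28.

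Most junctions ran between canonical exons, 512 of 529 (96.8%, against 88.1% overall). Of these 512, 273 (53.3%) left out 1 exon, 106 left out 2, 54 left out 3, 32 left out 4 and 47 (9.18%) left out 5 or more. Over all genes 57.7% left out 1 exon and 6.84% left out 5 or more. The annotation held 20.9% of the eIF junctions that left out 1 exon, 13.2% of those that left out 2, 11.1% at 3 and 10.1% at 4 or more. Over all genes it held 10408 of the 45208 junctions that left out 1 exon, a higher share than the 57 of 273 in eIF genes, and 11.9% at 2, 7.71% at 3 and 4.16% at 4 or more. The furthest jumps left out 11 exons in EIF4G1 and 10 in EIF2D and EIF3E.

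**Figure D2:**
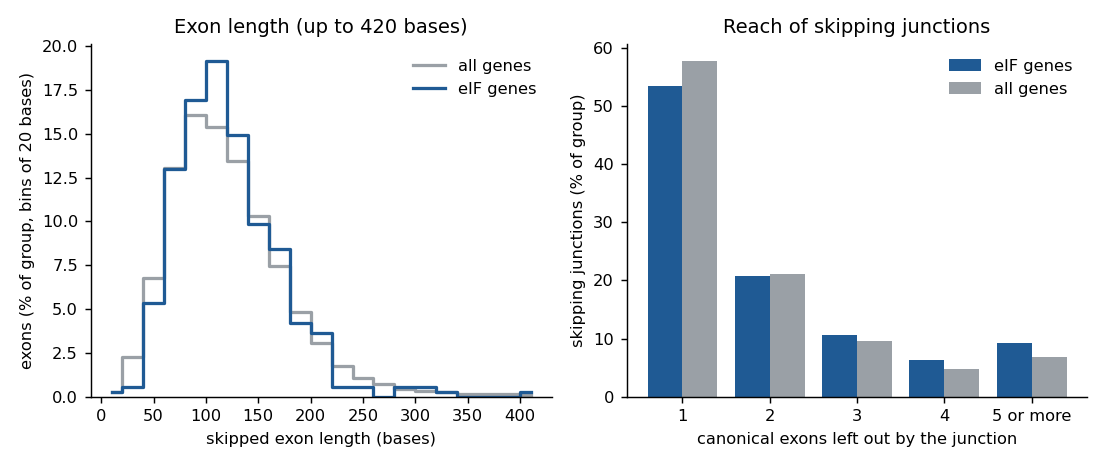
Left, length of skipped exons (bins of 20 bases, share of the group in percent) for the 355 eIF exons (blue) and all 67154 exons (grey). The axis ends before the longest exons. Right, share of skipping junctions between canonical exons by the number of exons left out, with 53.3% of eIF junctions and 57.7% of all junctions leaving out 1.

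EIF2B4 and EIF4G1 are described further because they had the most skipped-exon events, 55 and 46. The exon ranges given for both genes were chosen after the junctions were seen. The 25 skipping junctions of EIF2B4 were all outside the annotation, and 17 left out 2 or more exons, against 42.3% over all genes. From exon 4 to exon 11, 21 pairs of exons have at least 1 exon between them, and 20 of these pairs were joined by a listed junction. The pair of exons 7 and 11 was the exception. Exon 8, shown above, was named in 11 events, exons 6 and 9 in 9 each and exon 7 in 8, where the median eIF exon was named in 2 and the median exon of the table in 1. Exons 5 to 10 measure 80, 92, 115, 77, 103 and 128 bases, and none is a multiple of 3. Of the 25 junctions, 6 would remove a multiple of 3 and 18 would bring an early stop more than 50 bases before the last junction.

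EIF4G1 fell into separate stretches. Of its 25 junctions between canonical exons, 12 lay within exons 1 to 8, and 7 of these were annotated. The other 13 started at exon 13 or later, and 0 of them were annotated. The longest of these joined exon 17 to exon 29. Exon 3 (94 bases, with the start codon) was named in 8 events, and exon 2 (57 bases, in the 5'UTR) in 6.

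**Figure D3:**
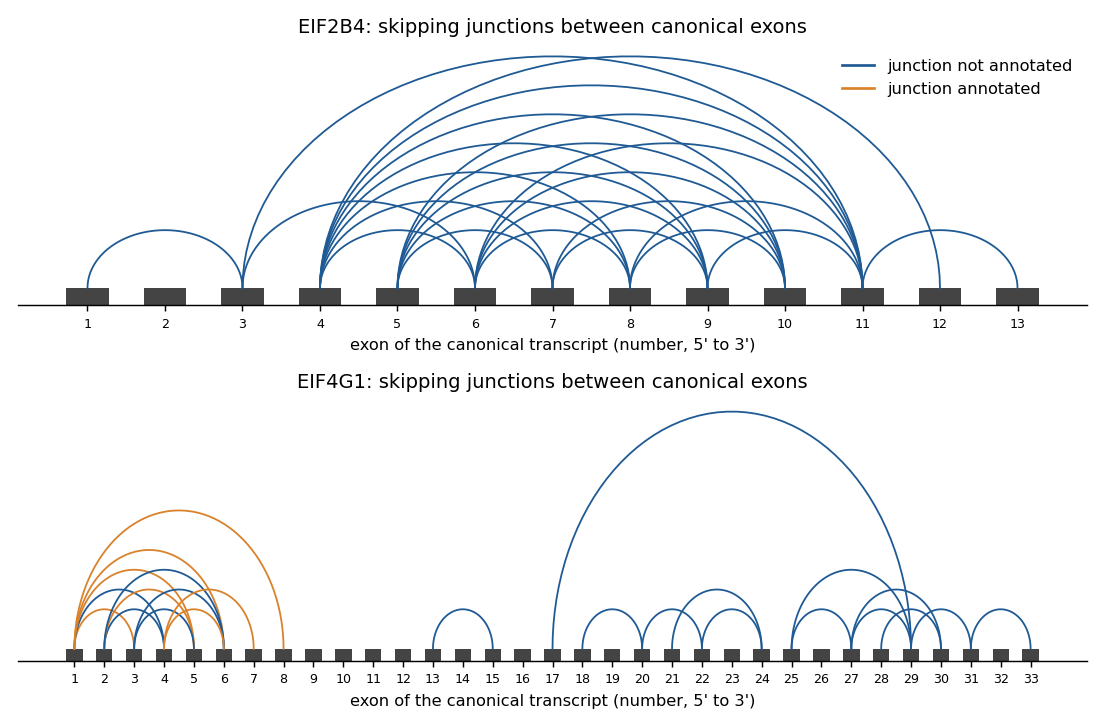
Skipping junctions of EIF2B4 and EIF4G1 drawn as arcs between exons of the canonical transcript, numbered on the x axis (boxes are not to scale), in orange where annotated and in blue where not. Arcs crowd exons 4 to 11 of EIF2B4, all in blue, and orange arcs of EIF4G1 all lie within exons 1 to 8.

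What the removal of a single exon would do was read from the canonical transcript for 260 eIF exons that a listed junction leaves out alone. The frame would be kept for 98 (37.7%), against 37.6% of 44634 exons over all genes. A stop codon more than 50 bases before the last junction would follow for 132 (50.8%, against 47.5%). For 17 the frame would shift with the new stop nearer to the end, either before or after the normal stop. The start codon would be lost for 6, 5 lay wholly in the 5'UTR, 1 kept the frame but met a new stop and 1 left no stop codon. By role the frame would be kept for 3 of 16 exons in the eIF2 trimer, 9 of 30 in eIF2B, 21 of 62 in eIF3, 23 of 52 in the cap complex and 17 of 34 in the kinases. EIF4G2 is not in these counts, since its annotated coding sequence does not begin with ATG. Where junctions left out 2 or more exons, 35.1% removed a multiple of 3 (79 of 225), against 40.3% overall.

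In the mutually exclusive exon table each of the 325 eIF events pairs 2 exons listed as alternatives to each other. Whether they replace each other in the mRNA was not tested, since the reads were not used. In 323 of them (99.4%, against 98.3% over all genes) both exons also stood in the skipped-exon table. None of the pairs had equal lengths, while 0.948% of 39869 events over all genes did. The lengths differed by a multiple of 3 in 128 pairs (39.4%, against 35.6%). Where both exons belonged to a canonical transcript, 192 of 302 pairs were neighbours (63.6%, against 69.7%). EIF2B4 had 44 events, EIF4G1 26, EIF2A 24, EIF2S3 19, EIF2D 17 and EIF3L 16.

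Splice sites were scored by how closely their bases follow those at annotated sites, as the sum over positions of the log2 ratio of base frequency to equal frequencies. The 5'SS score covers the last 3 bases of the exon and 6 of the intron, and the 3'SS score covers 20 bases of the intron and 3 of the exon. The mean 5'SS score of the 355 eIF exons was 8.07 ± 2.66 (SD over exons), and that of all skipped exons 7.77 ± 2.82. The mean 3'SS score was 9.37 ± 3.09, against 9.10 ± 3.47. Both differences are small beside the spread between exons. The letters GTAAGT followed 67 of the eIF exons (18.9%, against 14.1% of all skipped exons), searched on the strand of the gene directly after the exon.

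All 355 exons were preceded by AG, and 352 were followed by GT. The other 3 were followed by GC, which was also the case for 0.950% of all skipped exons. The sites of these exons, and of the exon with the lowest summed score, are shown because they had the 4 lowest summed scores. The 5'SS matrix was built only from sites with GT, so a GC scores low whatever the other bases are. The scores therefore do not show that the GC sites are weak. Capitals mark the first bases and the last bases of the introns.
EIF4G3, exon 2, 5'SS, chr1:21502662-21502670, - strand: acaGTatcc
EIF4G3, exon 2, 3'SS, chr1:21502849-21502871, - strand: gaaaccggctctgaaatcAGgca
EIF5B, exon 8, 5'SS, chr2:99985942-99985950, + strand: cagGCgggt
EIF5B, exon 8, 3'SS, chr2:99985835-99985857, + strand: ggtttctgcccctttttcAGtgt
EIF2B1, exon 8, 5'SS, chr12:124107177-124107185, - strand: aagGCaaga
EIF2B1, exon 8, 3'SS, chr12:124107306-124107328, - strand: tccattttctgccttcccAGatt
EIF3B, exon 11, 5'SS, chr7:2411482-2411490, + strand: aagGCaagt
EIF3B, exon 11, 3'SS, chr7:2411392-2411414, + strand: tcccccttttttttaaacAGggt

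Exon 2 of EIF4G3, 184 bases in the 5'UTR, had the lowest summed score, made up of a 5'SS score of -0.64 and a 3'SS score of -0.67. Its 5'SS begins with GTATCC, the start typical of introns removed by the minor (U12-type) spliceosome, which a matrix built mostly from major introns scores low. The same 6 letters directly after the exon were found at 2 of the 355 eIF exons (0.563%, against 0.219% of all skipped exons). The other is exon 3 of EIF3K, with 121 bases. The 3 exons followed by GC had 5'SS scores of -9.67 in EIF5B, -8.04 in EIF2B1 and -6.65 in EIF3B, while their 3'SS scores were 9.51, 12.57 and 12.49.

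At the high end of the scores stood exon 5 of EIF3E (summed score 27.94), exon 11 of EIF2AK1 (26.46), exon 14 of EIF4G3 (26.09) and exon 6 of EIF2AK1 (25.85). The last 3 are shown for comparison with the low-scoring sites, again with the intron's outer bases in capitals.
EIF2AK1, exon 11, 5'SS, chr7:6077049-6077057, - strand: aagGTaagt
EIF2AK1, exon 11, 3'SS, chr7:6077153-6077175, - strand: ctatttttttttacttcaAGgtc
EIF4G3, exon 14, 5'SS, chr1:21267978-21267986, - strand: cagGTaagc
EIF4G3, exon 14, 3'SS, chr1:21268821-21268843, - strand: acttatttttttttccccAGagg
EIF2AK1, exon 6, 5'SS, chr7:6085696-6085704, - strand: aagGTatga
EIF2AK1, exon 6, 3'SS, chr7:6085780-6085802, - strand: tctttttttctacttttcAGgtc

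**Figure D4:**
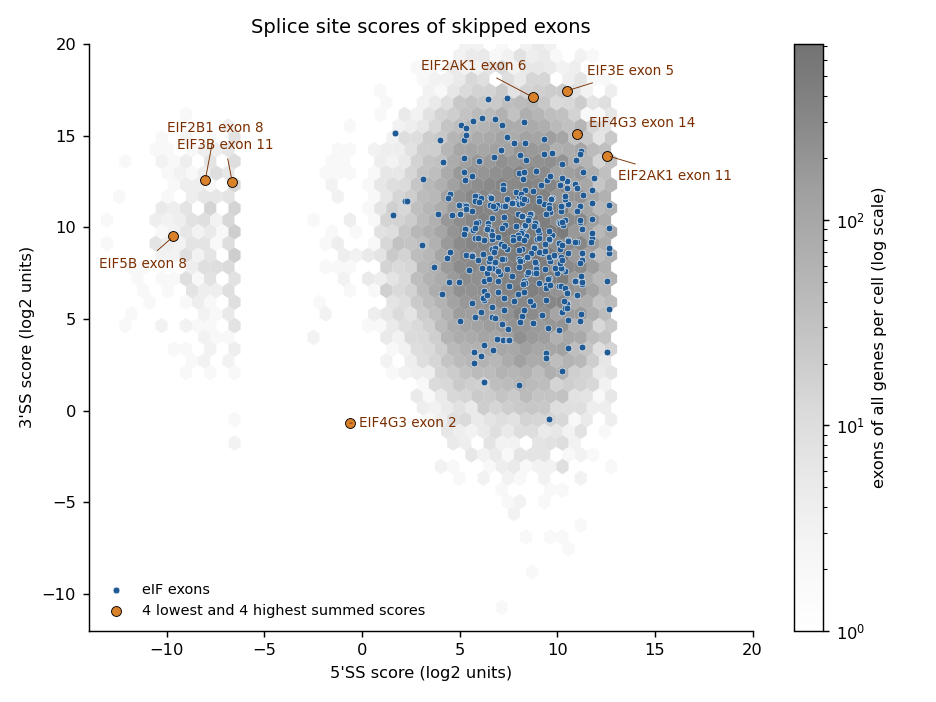
Splice site scores (log2 units) of the 355 eIF exons (blue points) over the density of all skipped exons (grey cells, log scale), with the 4 lowest and the 4 highest summed scores in orange. The 3 exons with GC after them lie to the left, at 5'SS scores of -6.65 and below, and exon 2 of EIF4G3 lies near 0 on both axes.

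The alternative 3'SS of eIF genes included sites only 3 bases apart. The 23 events came from 17 distinct pairs of sites, and 5 of these pairs (7 events) were tandem sites that add or drop 3 bases. Such sites made up 7 of the 23 eIF events (30.4%) and 718 of the 2868 events over all genes. The stretch between the sites was a multiple of 3 in 18 of the 23 events (78.3%, against 58.9% of the events over all genes). Some pairs are listed in more than 1 event, and by distinct pair it was 12 of 17. The 5 tandem sites are shown because the choice between them adds or drops 1 codon, with both AG in capitals.
EIF2B4, chr2:27592074-27592099, - strand: tttttttttaatgcttttAGtAGgcc
EIF4G1, chr3:184041173-184041198, + strand: tgtcttcatcccttgcttAGcAGgct
EIF4G3, chr1:21276599-21276624, - strand: ttttgtacttcaaatcccAGcAGctg
EIF4ENIF1, chr22:31843549-31843574, - strand: ccctcccctctccttttcAGcAGatg
EIF2AK1, chr7:6082619-6082644, - strand: tgttgtttgttttcattcAGcAGaca

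For the site before the added bases and the site after them, the 3'SS scores were 10.50 and 9.35 in EIF2B4, 6.53 and 9.69 in EIF4G1, 7.07 and 3.56 in EIF4G3, 11.55 and 11.56 in EIF4ENIF1 and 11.19 and 10.32 in EIF2AK1. The site after the added bases was thus the stronger one in EIF4G1 and all but equal in EIF4ENIF1. Both sites were annotated in each gene except EIF2AK1, where the shorter exon of 58 bases was not. In EIF4G1 another pair of sites lies 60 bases apart at exon 4, shown here with the 60 bases in capitals, and scored 9.30 and 9.24. Both forms are annotated.
EIF4G1, chr3:184033840-184033922, + strand: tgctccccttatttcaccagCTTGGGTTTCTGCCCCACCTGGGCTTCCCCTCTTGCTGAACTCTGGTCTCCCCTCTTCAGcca

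EIF1AD, a protein with an EIF1A-like domain, accounted for 9 of the 23 events. All 9 used 4 acceptor sites of a single exon, which gave lengths of 104, 174, 179 and 203 bases, and stretches of 5 to 99 bases between them. The widest stretches among the eIF events were 234 bases in EIF2AK2 and 231 bases in EIF6. These sites are shown, with AG in capitals, as the far ends of the range.
EIF1AD, exon of 203 bases, chr11:65767974-65767996, - strand: gacaccgtgtcacccctcAGtaa
EIF1AD, exon of 179 bases, chr11:65767950-65767972, - strand: aggcccctccccatcttcAGaac
EIF1AD, exon of 174 bases, chr11:65767945-65767967, - strand: cctccccatcttcagaacAGtcc
EIF1AD, exon of 104 bases, chr11:65767875-65767897, - strand: gtctcttcgttcctaaccAGtgt
EIF2AK2, exon of 401 bases, chr2:37376398-37376420, - strand: ttctcctccttcaatttcAGttt
EIF2AK2, exon of 167 bases, chr2:37376164-37376186, - strand: tcttttttctcttttaccAGttt
EIF6, exon of 317 bases, chr20:33872293-33872315, - strand: cccgcctccgccgcccctAGgcc
EIF6, exon of 86 bases, chr20:33872062-33872084, - strand: ccgagtccatgtccctacAGtgt

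The EIF1AD sites scored 2.86, 6.72, 3.15 and 6.86 from the longest to the shortest exon. In EIF2AK2 the scores were 11.18 and 15.03, and both forms lie in the 5'UTR. In EIF6 they were 3.84 and 4.47. Among the rest, EIF3B had a stretch of 75 bases, EIF4A1 one of 62 bases and EIF6 one of 7 bases with scores of 9.44 and 1.39.

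The 9 events at alternative 5'SS came from 4 pairs of sites, in EIF1AD (5 events), EIF4B (2), EIF4ENIF1 (1) and EIF6 (1). Between the sites lay 130, 15, 36 and 205 bases. They are shown with the first bases of the intron in capitals, for EIF4B and EIF4ENIF1 with both sites in a single run.
EIF4B, chr12:53428491-53428514, + strand: gaaGTaagtcagaccaggGTgggt
EIF4ENIF1, chr22:31850124-31850168, - strand: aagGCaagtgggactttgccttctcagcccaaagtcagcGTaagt
EIF1AD, exon of 257 bases, chr11:65769375-65769383, - strand: agtGTgggt
EIF1AD, exon of 127 bases, chr11:65769505-65769513, - strand: ccgGCaagt
EIF6, exon of 317 bases, chr20:33871973-33871981, - strand: tggGTaagg
EIF6, exon of 112 bases, chr20:33872178-33872186, - strand: cagGTgcgg

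In EIF1AD and EIF4ENIF1 the shorter exon ended at a GC, with scores of -9.13 and -6.65, and the longer at a GT, with 3.71 and 5.22. The matrix was built only from sites with GT, so these scores do not rank the GC sites against the GT sites. In EIF4B both sites had GT, with 8.74 for the shorter exon and 7.05 for the longer. The added 15 and 36 bases are multiples of 3, and the 130 and 205 bases are not.

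Both retained introns belonged to EIF6 and follow each other in the gene. The intron at chr20:33872065-33872183 has 119 bases and the intron at chr20:33872296-33872499 has 204 bases, against a median of 283 bases over the 677 events of the table. Both are rich in G and C (73.9% and 75.0%). Their 5'SS scored 7.55 and 4.52 and their 3'SS 4.47 and 3.84. The annotation removes both as introns in some transcripts. The 119-base intron lies between the sites of the 317-base exon named above, so 1 region of EIF6 accounts for its alternative 5'SS, the 231-base alternative 3'SS and both retained introns.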

How the data were processed

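The authors deposited 5 rMATS tables for 1 control and 1 amiloride library. The submitters' processing notes name STAR 2.5.1 and hg19/GRCh37. The rMATS version and annotation are not given in the sources used here. From these deposited tables, gene symbols, chromosome, strand, exon positions and effective lengths were used. For skipped exons the form with the exon was given an effective length of 125, that of the form without it, plus the exon length in 100% of events. A further 30 columns give reads or inclusion levels by library number, name no condition and were not used, nor were the 15 columns of the authors' comparisons, which hold p-values, FDR and inclusion level differences.

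Events were grouped into exons by position, and coordinates are 1-based. As a check of the build, 98.9% of all skipped exons lay between AG and GT on GRCh37. Junctions, canonical transcripts and exon numbers came from GENCODE release 44 lifted to GRCh37. Splice site matrices used 300873 annotated 5'SS with GT and 300290 annotated 3'SS with AG (pseudocount 0.5). In silico removal followed the frame of the canonical transcript from its ATG. A new stop in a shifted frame counted as far when more than 50 bases before the last junction. Whether nearer stops lie before or after the normal stop was not checked. Steps were tested on simulated data. Described in detail were the 6 genes with the most distinct exons, every event of a table with at most 15 of them (otherwise the 8 shortest and 4 longest stretches), exons of at most 27 bases, the 4 lowest and 4 highest summed scores, exons without AG or GT, and 6 genes chosen by name. EIF2B4 was added for its count of events. The members and lists were chosen with earlier results of these data known. Python 3.11.15, numpy 2.4.6, pandas 2.3.3 and pysam 0.24.0 were used.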

Additional observations from a re-analysis of the deposited data

How the results depend on the processing

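With the kinases, the eIF4E partners, the other named factors and the antisense RNA left out, 38 genes and 262 exons were left. Alternative 5'SS events then fell to 3 and alternative 3'SS events to 10. Counting events gave 741 where distinct exons gave 355. The share of events with an unannotated skipping junction rose to 88.4% with only protein-coding transcripts as the annotation, and was 73.5% when each exon counted once and any annotated junction sufficed. In the alternative chosen after seeing the data, distinct junctions, it was 82.8%. The other alternatives left their values within 1.5 times (counts, medians) or within the 95% interval of the main value (percentages by Wilson's method, score means). Exons listed under any symbol made 66.4% of internal exons in place of 64.9%, also added after seeing the data. No paired analysis was possible because there is only a single library on each side and no test was made. Depth was not analysed here, and an exon with no row may have had too few reads.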
